A study of Homo sapiens with 4 samples.

Results

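The 6 DLX genes of the human genome, DLX1 to DLX6, were examined for 2 histone marks at their promoters, in 1 chromatin immunoprecipitation sequencing (ChIP-seq) library per mark and condition. The members were taken by gene symbol, each symbol matched 1 row, and they are 6 of the 20242 promoters listed. The cells were JMJD3c-hESCs, a stable derivative of SEES-3 human embryonic stem cells that carries a piggyBac transgene for HA-tagged JMJD3c, the catalytic part of the histone demethylase JMJD3, switched on by doxycycline (Dox). One group was untreated (−Dox) and the other received Dox at 1 µg/ml for 3 days (+Dox), and both carried the same transgene and were grown without feeders in StemFit AK-03. The comparison is thus between states of 1 engineered line. Each group had 1 library, so no difference below has a replicate check and no p-value is given.

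Trimethylation of lysine 27 of histone H3 (H3K27me3) is written by the Polycomb complex PRC2 and goes with silent developmental genes, and JMJD3 removes it. Trimethylation of lysine 4 (H3K4me3) marks active or poised promoters. Promoters that carry both marks are called bivalent and are common among developmental regulators in embryonic stem cells. The DLX genes, the vertebrate relatives of Drosophila Distal-less, encode homeodomain transcription factors and lie in convergently transcribed pairs, each on the same chromosome as a HOX cluster. DLX1 and DLX2 act in the ventral forebrain, where they promote the formation of GABAergic interneurons. DLX5 and DLX6 pattern the lower jaw and act in limb and bone, DLX3 acts in skin, hair, teeth and placenta, and DLX4 is known mainly from the placenta.

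In the GRCh37 assembly DLX1 (ENSG00000144355, chromosome 2, 172949468 to 172954405, plus strand) and DLX2 (ENSG00000115844, chromosome 2, 172964166 to 172967628, minus strand) faced each other with 17393 bp between their transcription starts. DLX4 (ENSG00000108813, chromosome 17, 48045952 to 48052323, plus strand) and DLX3 (ENSG00000064195, chromosome 17, 48067369 to 48072588, minus strand) had starts 26034 bp apart. DLX6 (ENSG00000006377, chromosome 7, 96634865 to 96640352, plus strand) and DLX5 (ENSG00000105880, chromosome 7, 96649708 to 96654262, minus strand) had starts 19278 bp apart. The signal was summed over 3 kb on each side of a start, so the windows of a pair did not overlap (0 bp shared) and each gene was measured on its own reads. Each window held upstream sequence and the first part of the gene. The exons of the transcript used for the start covered 562 bases of it at DLX4 and up to 1992 at DLX2. The deposited starts of 5 members matched the canonical start. The deposited DLX5 transcript was not matched to the annotation used here, and its window was placed on the canonical start of the gene.

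The DLX windows were rich in CpG, the dinucleotide at which Polycomb and H3K4 methylation complexes gather in embryonic stem cells. They held 330 CG at DLX1, 310 at DLX2, 279 at DLX3, 221 at DLX4, 238 at DLX5 and 270 at DLX6, against a median of 156 over the 18244 matched promoters and 219 over the matched bivalent ones. Of all matched promoters 3.49% held as many as DLX1 and 20.7% as many as DLX4, so this richness was shared with many other promoters. Below, 250 bases are shown from the promoters of DLX1, DLX2 and DLX6, the members held by the RefSeq promoter reference used here. They are read 5′ to 3′ on the strand of each gene from GRCh37, at chr2:172949790-172950039 for DLX1, chr2:172967629-172967878 for DLX2 and chr7:96634615-96634864 for DLX6. Capitals mark every CG.
DLX1: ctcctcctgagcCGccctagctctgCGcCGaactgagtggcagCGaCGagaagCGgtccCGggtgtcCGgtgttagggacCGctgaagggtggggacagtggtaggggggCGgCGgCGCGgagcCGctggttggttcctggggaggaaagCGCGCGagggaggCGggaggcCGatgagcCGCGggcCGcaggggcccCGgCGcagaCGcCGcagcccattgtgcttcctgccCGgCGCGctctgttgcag
DLX2: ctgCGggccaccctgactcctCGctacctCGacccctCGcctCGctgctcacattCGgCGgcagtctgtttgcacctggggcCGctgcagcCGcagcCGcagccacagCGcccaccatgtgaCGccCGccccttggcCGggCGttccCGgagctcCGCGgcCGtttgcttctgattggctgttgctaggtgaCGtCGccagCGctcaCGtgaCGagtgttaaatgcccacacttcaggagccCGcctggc
DLX6: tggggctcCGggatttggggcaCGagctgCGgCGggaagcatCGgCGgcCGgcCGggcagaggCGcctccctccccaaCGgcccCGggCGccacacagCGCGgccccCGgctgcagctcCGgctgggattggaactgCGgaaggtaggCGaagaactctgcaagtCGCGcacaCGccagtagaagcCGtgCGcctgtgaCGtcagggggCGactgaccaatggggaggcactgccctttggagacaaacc
The DLX2 and DLX6 stretches end at the base before the start, and the DLX1 stretch ends 195 bases further upstream, clear of an annotated untranslated exon. The DLX1 stretch lies inside the annotated gene, in an intron of a longer transcript that begins at 172949468. The stretches held 29, 25 and 25 CG, and 17.8%, 27.5% and 27.5% of all matched promoters held at least as many in the 250 bases before the start. The CCAAT motif, searched as CCAAT on both strands, occurred 0, 1 and 2 times in them, and 32.9% of all matched promoters held it. These counts describe the letters in these stretches only.

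The libraries were shallow. Every value was a whole multiple of a step (100% within 0.01 step), from which library sizes of about 2629351 reads (H3K27me3) and 3509244 reads (H3K4me3) follow for −Dox, and of 2682085 reads for both +Dox libraries. That both +Dox files imply the same size leaves it unknown whether 1 of them was scaled with the read number of the other, which would multiply every +Dox/−Dox ratio of that mark by a common factor and change its approximate +Dox reads. The marks of pluripotent cells were checked on 9 pluripotency promoters, of which 8 carried H3K4me3 above 20 without H3K27me3 in −Dox cells, and POU5F1 was unmarked, with H3K4me3 of 5.41. The values below are signal, that is coverage scaled to the reads of the library and summed over the window, and each is given with the approximate number of reads behind it. Intervals are 95% intervals of counting error, exact Poisson for a value and exact Clopper-Pearson for a ratio. They compare libraries and not conditions, and cover neither culture nor immunoprecipitation.

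All 6 DLX promoters were bivalent in −Dox cells, by the study's threshold of more than 20 for both marks, which 9.42% of all promoters passed. Their H3K27me3 ranked within the top 2.03% of promoters. In −Dox cells the signal was 170 at DLX1 (interval 143 to 202, about 134 reads) and 155 at DLX2 (129 to 185, about 122 reads). It was 93.6 at DLX3 (73.8 to 118, about 74 reads) and 200 at DLX4 (169 to 233, about 157 reads). At the third pair it was 171 at DLX5 (144 to 203, about 135 reads) and 180 at DLX6 (152 to 213, about 142 reads). The median over all promoters was 6.09, and DLX4 ranked 62 and DLX3 411 of 20242. DLX3, the gene of skin and teeth, stood below the others, with a signal lower than that of the next member, DLX2, by a factor of 1.66 (1.23 to 2.23). The other neighbours in the order DLX4, DLX6, DLX5, DLX1 and DLX2 did not differ beyond counting error.

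H3K4me3 at the same promoters was moderate. In −Dox cells the signal was 68.7 at DLX1 (53.6 to 86.3, about 72 reads) and 22.5 at DLX2 (14.6 to 34, about 24 reads). DLX3 had 54.1 (41.1 to 70.3, about 57 reads) and DLX4 41.9 (30.4 to 56.2, about 44 reads). The H3K4me3 signal was 20.5 at DLX5 (13.1 to 31.7, about 22 reads) and 35.6 at DLX6 (24.8 to 48.5, about 37 reads). The median over all promoters was 41.3. DLX2 and DLX5 were therefore bivalent only just, and their intervals included the threshold of 20. No 2 neighbours in the order differed beyond counting error, but the highest, DLX1, exceeded the lowest, DLX5, by a factor of 3.35 (2.01 to 5.54).

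**Figure D1:**
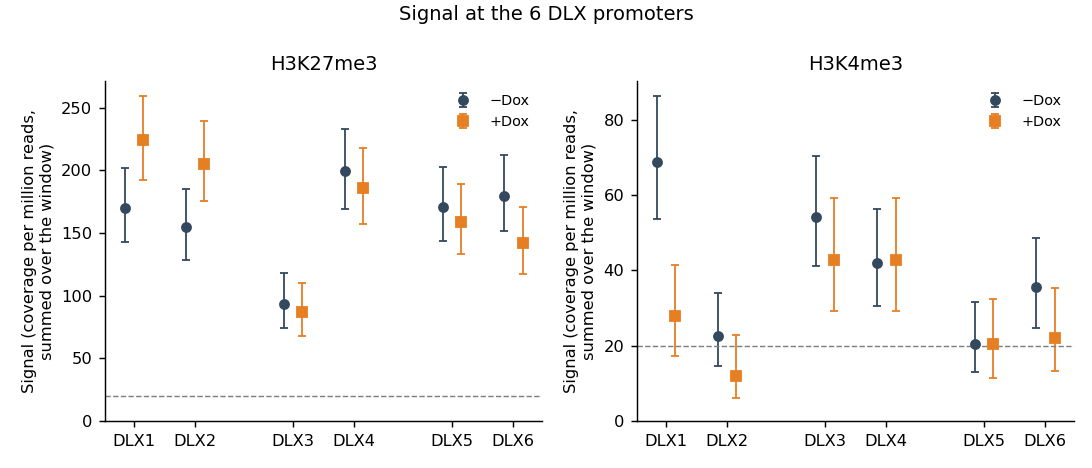
Signal of H3K27me3 (left) and H3K4me3 (right) at each DLX promoter, as coverage scaled to the reads of the library and summed over 3 kb on each side of the start. Circles are −Dox and squares +Dox, 1 library each, bars are 95% Poisson intervals of the approximate reads and the dashed line is the threshold of 20. For H3K27me3, DLX1 and DLX2 lie higher in +Dox, at 224 and 205, and the other 4 genes lie somewhat lower. For H3K4me3 the widest gap is at DLX1, from 68.7 to 28.0.

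The first comparison asked whether H3K27me3 at the DLX genes was lower after induction of JMJD3c. In +Dox cells the signal was 224 at DLX1 (193 to 259, about 180 reads) and 205 at DLX2 (175 to 239, about 165 reads). DLX3 had 86.9 (68.0 to 110, about 70 reads) and DLX4 186 (157 to 218, about 149 reads). The H3K27me3 signal was 159 at DLX5 (133 to 190, about 128 reads) and 142 at DLX6 (117 to 171, about 114 reads). Every member was still far above the threshold of 20. DLX1, DLX2, DLX4, DLX5 and DLX6 followed each other in this order without differing from the next beyond counting error, and DLX3 was again below its neighbour, DLX6, by a factor of 1.63 (1.2 to 2.23).

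Relative to the reads of each library, H3K27me3 was higher in +Dox at DLX1, with a +Dox/−Dox ratio of 1.32 (1.05 to 1.66), and at DLX2, also with 1.32 (1.04 to 1.69). It was 0.929 (0.659 to 1.30) at DLX3 and 0.93 (0.739 to 1.17) at DLX4. It was 0.93 (0.724 to 1.19) at DLX5 and 0.788 (0.610 to 1.01) at DLX6, and the intervals of all 4 included 1. None of the 6 had a ratio below 0.5, which was found at 21.5% of all promoters with a ratio and at 40.8% of the 1907 bivalent ones. The interval lay above 1 at 2 of the 6, the linked genes DLX1 and DLX2, against 2.15% of bivalent promoters. It lay below 1 at 0 of the 6, against 48.5%. These shares were 8.04% and 36.3% among bivalent promoters with at least as much H3K27me3 in −Dox as DLX3. The ratio itself exceeded 1 at these same 2 members, against 12.4% of bivalent promoters. Among bivalent promoters with at least as much H3K27me3 in −Dox as DLX3 that share was 32.1%, close to that of the members. The direction at DLX3, DLX4 and DLX5 depended on scaling. With both H3K27me3 libraries set to the same total, which raises +Dox by a factor of 1.18, these also had ratios above 1 and DLX6 did not, although DLX1 and DLX2 were still the only members with an interval that left out 1. Since each library is scaled to its own reads, these ratios cannot show a loss common to all promoters. The paper's immunoblots showed total H3K27me3 falling over 3 days of Dox, which these ratios do not take into account.

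The members were set beside promoters of similar H3K27me3, since among bivalent promoters the median ratio was higher at those with much of the mark. The median log2 H3K27me3 ratio was −0.10 over the 6 DLX promoters, −0.15 over all promoters with a ratio and −0.81 over bivalent promoters. It was −0.26 over the 336 bivalent promoters with at least as much H3K27me3 in −Dox as DLX3. Over the 276 bivalent promoters with a mean of both conditions at least that of DLX3 it was −0.09. In that set of 276 the ratio exceeded 1 at 43.1% and was below 0.5 at 12 promoters. Its interval lay above 1 at 33 and below 1 at 56 of them. In the set of 336 the interval lay above 1 at 8.04% and below 1 at 36.3%, and the ratio was below 0.5 at 43 promoters. The ratio of DLX1 was higher than that of 94.6% of this set and that of DLX2 higher than 94.9%, while DLX3, DLX4 and DLX5 exceeded 60.7, 61.0 and 61.3% of it and DLX6 43.5%. DLX1 and DLX2 were thus in the upper part even of the promoters rich in H3K27me3, and the others near the middle.

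**Figure D2:**
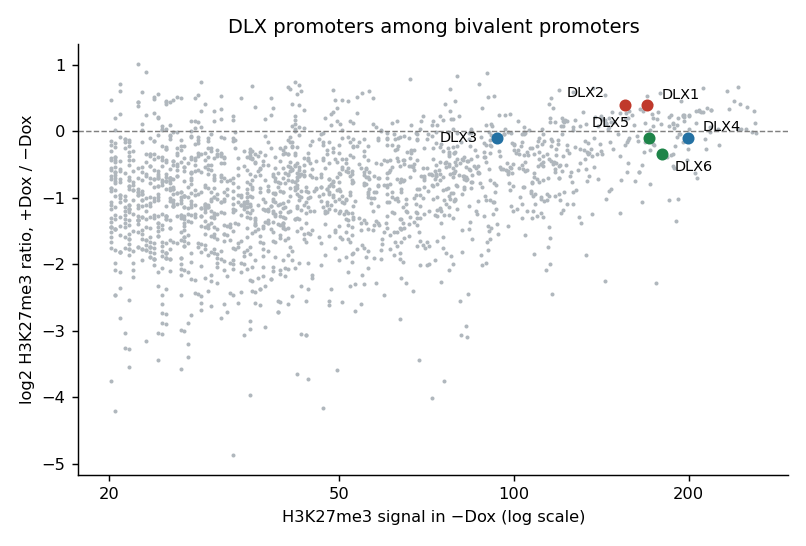
Log2 H3K27me3 ratio (+Dox/−Dox) against the −Dox H3K27me3 signal (log scale) of the 1907 promoters bivalent in −Dox cells (grey), with the 6 DLX promoters in colour by linked pair. The cloud rises towards 0 at high signal, where the DLX promoters lie, and DLX1 and DLX2 lie above 0 at 0.40.

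The linked genes were then compared within each pair, by the ratio of their +Dox/−Dox ratios, which does not depend on how the libraries are scaled. For H3K27me3 the ratios of DLX1 and DLX2 differed by a factor of 1.00 (exact conditional interval 0.709 to 1.39), those of DLX3 and DLX4 by 0.999 (0.657 to 1.51), and those of DLX5 and DLX6 by 1.18 (0.824 to 1.69). Differences within these bounds were not detectable at this depth. The reads of both genes were then summed. The DLX1-DLX2 pair went from 325 to 429, a ratio of 1.32 (1.12 to 1.56), the DLX3-DLX4 pair from 293 to 273, a ratio of 0.929 (0.769 to 1.12), and the DLX5-DLX6 pair from 351 to 301, a ratio of 0.857 (0.718 to 1.02). The DLX1-DLX2 ratio exceeded that of DLX3-DLX4 by a factor of 1.42 (1.10 to 1.83) and that of DLX5-DLX6 by 1.54 (1.21 to 1.97), whereas the latter pairs differed by 1.08 (0.836 to 1.41). This comparison between pairs was chosen after the values were seen.

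H3K4me3 was compared next. In +Dox cells the signal was 28.0 at DLX1 (17.2 to 41.5, about 22 reads) and 11.9 at DLX2 (5.97 to 22.9, about 10 reads). DLX3 and DLX4 had the same value, 42.9 (29.3 to 59.2, about 34 reads each). The third pair had 20.5 at DLX5 (11.4 to 32.4, about 16 reads) and 22 at DLX6 (13.3 to 35.4, about 18 reads). No neighbours in the +Dox order differed beyond counting error. DLX2 was below the threshold, which its interval included, and was now H3K27me3-only, so that 5 of the 6 members were bivalent in +Dox cells, against 5.07% of all promoters. Of the 1907 promoters bivalent in −Dox, 51% were still bivalent, and of the 336 of these with at least as much H3K27me3 in −Dox as DLX3, 82.7% were, a share close to that of the members.

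The H3K4me3 ratio was 0.407 (0.236 to 0.652) at DLX1, the only member with an interval that left out 1 and the only one below 0.5. It was 0.530 (0.233 to 1.18) at DLX2. At DLX3 it was 0.792 (0.495 to 1.21) and at DLX4 1.02 (0.627 to 1.62). The ratio was 0.999 (0.467 to 1.90) at DLX5 and 0.618 (0.341 to 1.15) at DLX6. Among bivalent promoters 4.3% had an H3K4me3 ratio below 0.5 and 10% an interval below 1, and 18.2% had one in the set of 336 rich in H3K27me3. The ratio at DLX1 was lower than that of all but 1.52% of bivalent promoters and 5.06% of the rich set. The median log2 ratio over the 6 members was −0.52, against −0.18 over bivalent promoters, −0.31 over the set of 336 and −0.03 over all promoters. With 10 to 72 reads behind each value, changes within these intervals were not detectable at DLX2 to DLX6, and the side of 1 on which DLX4 and DLX5 lay moved with scaling.

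Within pairs the H3K4me3 ratios differed by factors of 0.768 (0.284 to 2.0) for DLX1 against DLX2, 0.774 (0.398 to 1.5) for DLX3 against DLX4 and 1.62 (0.581 to 3.83) for DLX5 against DLX6, all with intervals that included 1. By pair, the summed H3K4me3 went from 91.2 to 39.9 at DLX1-DLX2, a ratio of 0.437 (0.283 to 0.657). It went from 96.0 to 85.8 at DLX3-DLX4, a ratio of 0.893 (0.638 to 1.21), and from 56.1 to 42.5 at DLX5-DLX6, a ratio of 0.757 (0.479 to 1.17). The DLX1-DLX2 ratio was lower than that of DLX3-DLX4 by a factor of 0.490 (0.288 to 0.843). Its difference from DLX5-DLX6, a factor of 0.578 (0.310 to 1.08), was within counting error. So was that between DLX3-DLX4 and DLX5-DLX6, a factor of 1.18 (0.672 to 2.04). For H3K4me3 too, the comparison between pairs was chosen after the values were seen.

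**Figure D3:**
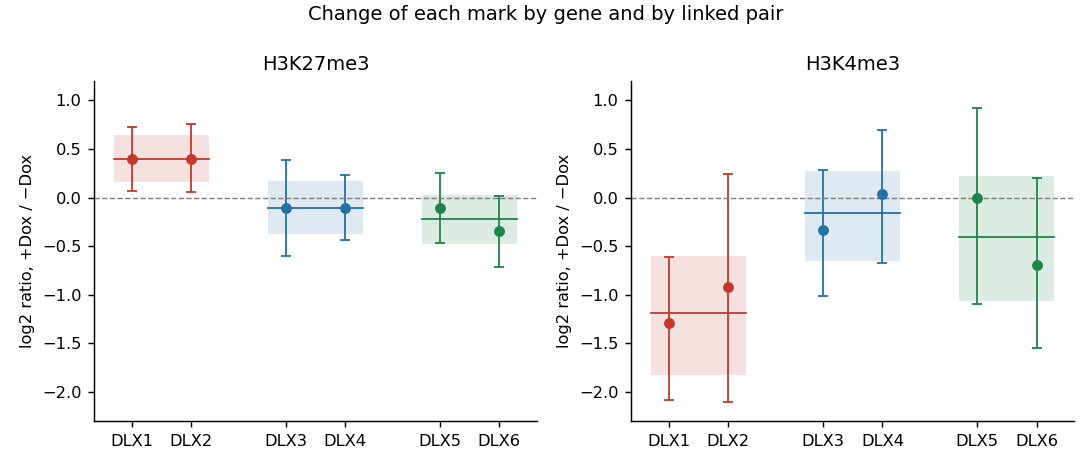
Log2 +Dox/−Dox ratio of H3K27me3 (left) and H3K4me3 (right) at each DLX gene (points, with 95% counting intervals) and for the summed signal of each linked pair (horizontal line, with shaded 95% interval). For H3K27me3 DLX5, at −0.10, lies level with DLX3 and DLX4, and its partner DLX6 lies lower, at −0.34. The members of DLX1-DLX2 lie close together and this pair lies above 0, at 0.40. For H3K4me3 the same pair lies below 0, at −1.19, and the intervals are wider.

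DLX1 therefore had more H3K27me3 and less H3K4me3 in +Dox cells, relative to the reads of each library, with both intervals leaving out 1. This combination was found at 1 of the 6 members and at 0.891% of bivalent promoters, or 3.87% of the 336 rich in H3K27me3. Over the 336 bivalent promoters rich in H3K27me3 the log2 ratios of both marks were inversely related, with a Pearson r of −0.55 and a Spearman rho of −0.54. The promoters share the same 4 libraries and are no replicates, so this is a description of them.

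**Figure D4:**
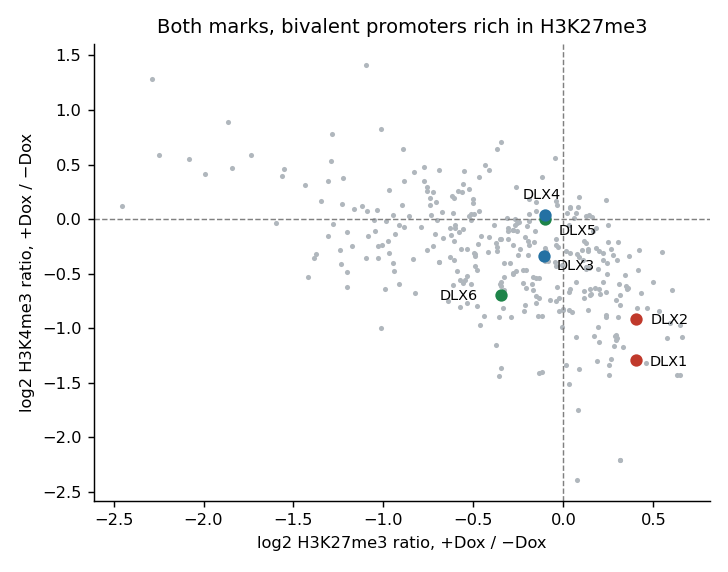
Log2 ratio (+Dox/−Dox) of H3K4me3 against that of H3K27me3 for the 336 promoters bivalent in −Dox with at least as much H3K27me3 as DLX3 (grey), with the DLX promoters in colour by linked pair. DLX1 and DLX2 lie at the lower right, with log2 ratios above 0 for H3K27me3 and below 0 for H3K4me3. DLX4 and DLX5 lie close to 0 for H3K4me3.

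The other promoters near the pairs were examined next. The files hold 12 other promoters within 250 kb of a DLX start, and 0 of the 12 had H3K27me3 above 20 in −Dox cells, the values lying between 1.14 and 13.7, against 11% of all promoters above 20, so a count of 0 among 12 is close to that share. Nearest to DLX1 were METAP1D, a mitochondrial methionine aminopeptidase gene, 85.4 kb away and with 12.6, and SLC25A12, a mitochondrial carrier gene whose window overlaps that of METAP1D, with 12.2. ITGA3, an integrin gene 60.8 kb from DLX3, had 5.32, COL1A1, which encodes a chain of type I collagen, had 13.7, and ACN9, 92.9 kb from DLX5, had 4.18. Of the 12, 11 were H3K4me3-only, against 54.2% of all promoters, and TAC4 was unmarked. At HAT1, a histone acetyltransferase gene on the DLX1 side, H3K4me3 was 49.0 in −Dox and 53.3 in +Dox, a ratio of 1.09 (0.718 to 1.69), and at METAP1D the ratio was 1.13 (0.712 to 1.73). Both intervals lay above the ratio of 0.407 at DLX1.

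**Figure D5:**
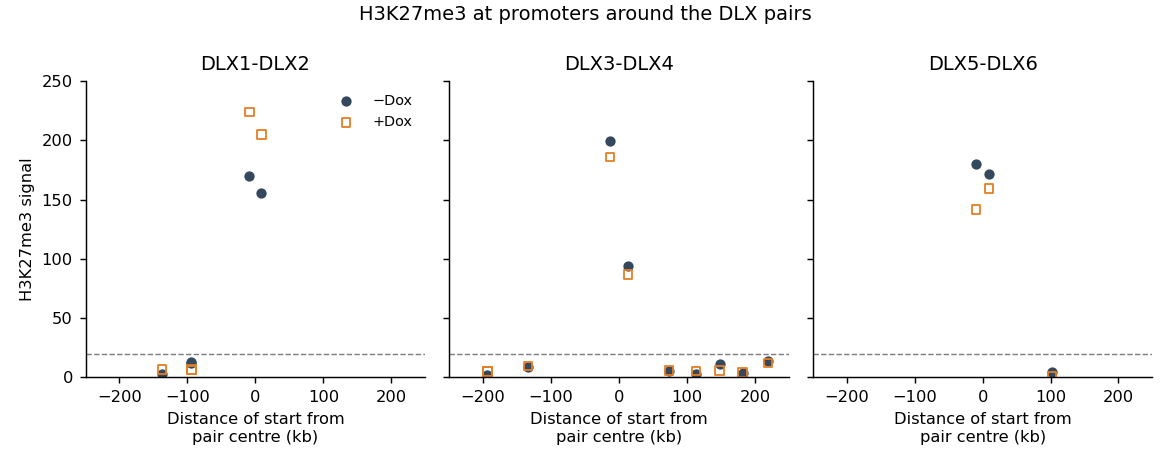
H3K27me3 signal at the promoters within 250 kb of each DLX pair, by the distance of the start from the centre of the pair. Filled circles are −Dox, open squares +Dox and the dashed line is the threshold of 20, above which only the DLX promoters lie.

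The nearest relatives of the DLX genes, the other NK-like homeobox genes, were examined as a list of 42, all found in the files. In −Dox cells 30 of the 42 were bivalent and 3 H3K27me3-only, against 1907 and 319 of the 20242 promoters, and the median H3K27me3 was 155. The median log2 H3K27me3 ratio was 0.09 over the list. The interval lay above 1 at 8 and below 1 at 5 of the 42, against 1.59% and 7.05% of all promoters with a ratio. Among the 30 bivalent ones it lay above 1 at 4 and below 1 at 5. The shares were 8.04% and 36.3% in the 336 bivalent promoters rich in H3K27me3. The 8 include NKX6-2, with about 2 and 10 reads, and TLX1, with about 12 and 29. MSX1 and MSX2, homeobox genes that act beside the DLX genes in the jaw and teeth, had H3K27me3 ratios of 1.23 (0.976 to 1.54) and 1.06 (0.789 to 1.4). The highest ratios among members with at least 50 in −Dox were 1.58 (1.32 to 1.91) at NKX2-3, 1.41 (1.07 to 1.86) at NKX2-8, 1.37 (1.11 to 1.69) at EN1, a midbrain and hindbrain factor, and 1.35 (1.07 to 1.70) at BARHL2. The lowest were 0.539 (0.389 to 0.736) at EMX1, a factor of the dorsal forebrain, 0.559 (0.344 to 0.873) at HHEX, 0.598 (0.445 to 0.798) at HMX2 and 0.646 (0.50 to 0.830) at HLX. The ratios at DLX1 and DLX2 were within this range. The median log2 H3K4me3 ratio was −0.36 over the list, with the interval below 1 at 8 and above 1 at 1 of the 42, against 3.06% and 1.81% of all promoters with a ratio. Of the 30 bivalent ones 7 had it below 1 and 1 above, against 61 and 7 of the 336 rich in H3K27me3. At EMX1, the 1 above, H3K4me3 was 67.3 in −Dox and 105 in +Dox, a ratio of 1.56 (1.12 to 2.15), the opposite of DLX1 in both marks.

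Genes that work with the DLX factors were examined as a second list of 27. Of these, 18 were bivalent in −Dox cells and 14 in +Dox cells, against 9.42% and 5.07% of all promoters. Of the 18, 13 were still bivalent in +Dox cells. H3K27me3 had a median log2 ratio of −0.08, with the interval above 1 at 3 and below 1 at 5 of the 27, against 2.15% and 48.5% of bivalent promoters and the 1.59% and 7.05% of all promoters. Among the 11 genes of the ventral forebrain, GSX1, a homeobox gene active in the same progenitors, had H3K27me3 of 240 and 330, a ratio of 1.38 (1.14 to 1.67), and NKX2-1, which specifies the medial ganglionic eminence, had 230 and 304, a ratio of 1.32 (1.09 to 1.61). GAD1 and GAD2, which encode the enzymes that make GABA, had lower H3K27me3 in +Dox, with ratios of 0.497 (0.353 to 0.686) and 0.316 (0.174 to 0.544). The median log2 H3K4me3 ratio over the 27 was −0.35, with the interval below 1 at 3 of them, GSX1, LHX6 and EDNRA, against 10% of bivalent promoters and 3.06% of all, and above 1 at 0. H3K4me3 was 24.2 and 9.69 at GSX1, a ratio of 0.400 (0.163 to 0.958), and 36.2 and 12.7 at LHX6, a factor of migrating interneurons, a ratio of 0.350 (0.153 to 0.704).

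Of the 9 pharyngeal arch genes, HAND1 had an H3K27me3 ratio of 1.24 (1.01 to 1.54) and HAND2, which acts downstream of DLX5 and DLX6 in the lower jaw, 1.19 (0.957 to 1.48). EDNRA, the receptor of the endothelin signal upstream of DLX5 and DLX6, carried less H3K27me3, 36.9 in −Dox and 18.3 in +Dox, a ratio of 0.495 (0.253 to 0.977), and its H3K4me3 ratio was 0.336 (0.165 to 0.655). Of the 7 bone and skin genes only BMP2 and BMP4, which encode signals that induce DLX genes, were bivalent. The H3K27me3 signal of BMP4 was 54.4 in −Dox and 8.95 in +Dox, with a ratio of 0.165 (0.0606 to 0.358), and that of BMP2 was 39.9 and 19.0, with a ratio of 0.476 (0.238 to 0.906). RUNX2, a master gene of bone, was unmarked, with 3.04 in −Dox.

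The promoters most like each DLX promoter over the 4 libraries were found by Euclidean distance in log2(signal + 1). CRYBA2, a lens crystallin gene, was nearest to DLX2 at a distance of 0.14, with H3K27me3 of 158 and 196 and H3K4me3 of 22.5 and 13.0, and HOXA5 followed at 0.25. DLX1 had no close match, its nearest being LINC01124 at 0.49 and SP5, a target of Wnt signalling, at 0.50. DLX3 was nearest to RSPO2 at 0.18 and TCF24 at 0.21, and DLX4 to MNX1 at 0.30 and ONECUT2 at 0.32. DLX5 was nearest to NKX2-2 at 0.16 and NFIC at 0.25, and DLX6 was near PITX1, a hindlimb and jaw factor, at 0.25. Partners were at distances of 1.96 for DLX1 and DLX2, 1.58 for DLX3 and DLX4 and 0.794 for DLX5 and DLX6. DLX2 was nearer to DLX5, at 0.841, than to its partner, and DLX1 to DLX4, at 0.988.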

How the data were processed

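The study's authors sequenced the ChIP-seq libraries as single-end MiSeq reads, mapped them to hg19 with Bowtie2 and removed mitochondrial reads. The submitters' processing notes also name CASAVA 1.4. The deposited values are signal, ngs.plot coverage scaled to the reads of the library and summed over 3 kb on each side of 1 transcript start per Ensembl gene. The study's methods state that profiles were scaled to the mean density downstream of transcription ends, and do not say whether this holds for the deposited values. No input library was used here.

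The smallest step between values gave the approximate reads per library, and peaks in the histogram of low values, 3.34 steps apart, the steps per read. Both +Dox files had the same step, 0.373. Ratios were +Dox/−Dox without a pseudocount. Intervals were computed with scipy 1.17.1 and tested on simulated data. Positions came from GENCODE 44 mapped to GRCh37 (hg19), in which 90.1% of transcripts were matched, and the CG counts from the GRCh37 genome. A RefSeq promoter table held 3 of the 6 members, and promoter stretches are shown for those. The members and lists were chosen with earlier results of these data known. Genes named beside the members are, by rule, the nearest 2 by signal, those within 250 kb, MSX1 and MSX2, and the extremes by H3K27me3 ratio of each list above 50 in −Dox. LHX6, EDNRA, HAND2, RUNX2, BMP2, NKX6-2 and TLX1 were named after their values were seen. Some genes that this rule names are not reported here. The alternatives were 2 scalings, pseudocounts of 1 and 5, thresholds of 10, 15 and 30, a pair mean, and 25% more steps per read.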

Additional observations from a re-analysis of the deposited data

How the results depend on the processing

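With both libraries of a mark set to the same total the median log2 H3K27me3 ratio of the 6 DLX promoters became 0.13, so no direction can be given to that median, whereas it was −0.02 with scaling over low promoters, and the mean of the pair means was 0.02. With a threshold of 30, 4 DLX promoters were bivalent in −Dox cells and 2 in +Dox cells, and with a threshold of 10 all 6 were bivalent in both. Under these alternatives the median H3K4me3 log2 ratio lay between −0.63 and −0.45, and between −0.70 and −0.34 when each member was left out in turn, an alternative chosen after seeing the data. DLX1 and DLX2 for H3K27me3, and DLX1 for H3K4me3, were the members whose interval left out 1 under both scalings. The intervals within pairs included no difference (a factor of 1) also with 25% more steps per read. No paired analysis was possible because there is a single library per mark and condition, which also leaves none to omit. Depth limits H3K4me3 most, where DLX2 rests on about 24 and 10 reads.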

Other observations

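DLX1 was 1 of 17 bivalent promoters whose H3K27me3 interval lay above 1 and whose H3K4me3 interval lay below 1. The others were SLC4A11, HSF4, RP11-5A19.5, ICAM5, HOXA13, ULBP1, NKX2-3, PRDM12, ITPKA, CBX8, UNCX, GSX1, SCRT1, C12orf68, FOXB2 and TLX1NB, and those given with values below were picked after the values were seen. At GSX1, the ratios were 1.38 for H3K27me3 and 0.400 for H3K4me3, at NKX2-3 1.58 and 0.472, at HOXA13 1.49 and 0.468, and at UNCX 1.57 and 0.372. CBX8, which encodes a Polycomb protein that binds H3K27me3, had 1.26 and 0.443. The −Dox H3K27me3 of the 17 ranged from 22.4 to 259, and 2 of them, HSF4 and RP11-5A19.5, carried identical values in all 4 libraries.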
